A study of Mus musculus with 66 samples.

Results

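The 48 genes described here encode transcription factors and cofactors of neuronal development and form 9 families, with 12 zinc finger, 10 homeodomain, 6 nuclear receptor, 4 MEF2, 4 helix-loop-helix, 3 HMG box, 3 nuclear factor I and 2 forkhead genes and a mixed group of 4 Runt, ETS and AFF genes. They were picked by name, but with earlier results of these data known, so how many of them were listed describes that choice. Every region that the authors' 7 lists of differing regions assigned to any of the 48 genes was taken. That gave 340 regions of 57678, at 44 of the 48 genes, among 9811 genes named in any list. Mef2a, Mef2d, Lhx2 and Nr2f1 had no region in any list.

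The study asked how neuronal activity and enriched housing change histone turnover in C57bl/6 mice. Cortical neurons taken at E16.5 (embryonic age in days) and cultured for 8 days were depolarised with isotonic KCl for 30 min, 2 hr or 5 hr, or were left unstimulated for the same time. Hippocampal nuclei of mice about 7 weeks old were sorted by NeuN, a protein of neuronal nuclei, after 4 weeks of enriched housing or after normal housing. H3.3 was immunoprecipitated in each of these settings, H3.1/2 after 5 hr of KCl, and at the same time newly made histones were captured on streptavidin beads (CATCH-IT). NeuN-positive nuclei are neurons, while NeuN-negative nuclei are a mixture of glia, vascular cells and any neurons that escape the stain. In such bulk samples a change in the mix of cells and a change of chromatin within a cell cannot be told apart.

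Histone H3.3 enters chromatin outside DNA replication, which makes it the main source of new H3 in neurons that no longer divide. It is exchanged at active promoters, enhancers and gene bodies. Many transcription factors that set neuronal identity stay expressed in mature neurons, and their genes are often long, with enhancers spread through their introns.

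A region was called gained when its normalised read count was higher in KCl or enriched libraries than in the reference libraries and lost when it was lower, and the lists hold only changes of about 3-fold or more. Levels below are the authors' normalised reads per region, given per library and then as mean ± SD over 3 libraries a group, or over 2 in NeuN-positive nuclei. The labels' protocols state biological triplicates in culture and duplicates in mice, although the NeuN-negative list gives 3 values a group. A single read was worth 0.758 to 1.36 normalised reads in the H3.3 culture libraries, 0.785 to 1.51 in NeuN-positive, 0.542 to 2.64 in NeuN-negative and 0.316 to 2.72 in CATCH-IT libraries, so counts behind single regions are small. At 30 min, at 2 hr, in NeuN-negative nuclei and in CATCH-IT all libraries of a group carried one lane number and those of the other group another, so lane and group cannot be told apart. Whether the sorted nuclei carry the markers of their label could not be read from lists of differing regions, which give no level for a gene that is not listed. Of 5 neuron markers, 0 had a region in either nuclear fraction, and of 5 microglia markers 1, P2ry12, had a lost region, in NeuN-negative nuclei. Among NeuN-positive nuclei, beside the gains described next, 1 of 6 astrocyte markers (Aldh1l1) and 1 of 7 oligodendrocyte lineage markers (Mbp) were gained, and their part in those gains was not tested.

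The sequences of 7 H3.3 regions on which later comparisons turn are given here from the mm9 genome, plus strand, 5′ to 3′. Capitals mark matches, on either strand, to an E-box (CANNTG, bound by helix-loop-helix factors), the AP-1 motif TGANTCA, the ROR core AGGTCA or the MEF2 motif. The Cux2 pair lies 360 bp apart and was lost after 5 hr of KCl but gained in enriched NeuN-positive nuclei. The Aff3 region was lost after 30 min of KCl and lies inside a gained CATCH-IT region. The Zfpm2 region was the only one of the set gained at 30 min. The Rora, Etv6 and Nfia regions hold matches to motifs of factors encoded by genes of the set or of activity-regulated AP-1.
Cux2 after 5 hr, chr5:122330241-122330440: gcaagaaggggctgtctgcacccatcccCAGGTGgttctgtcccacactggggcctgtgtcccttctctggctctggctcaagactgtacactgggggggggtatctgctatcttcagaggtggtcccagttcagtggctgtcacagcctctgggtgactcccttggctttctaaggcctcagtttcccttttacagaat
Cux2 in NeuN-positive nuclei, chr5:122329681-122329880: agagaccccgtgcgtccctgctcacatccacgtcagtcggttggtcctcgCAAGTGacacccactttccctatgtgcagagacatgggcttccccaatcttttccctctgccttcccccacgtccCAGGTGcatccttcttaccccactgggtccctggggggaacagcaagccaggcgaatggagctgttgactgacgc
Aff3 after 30 min, chr1:38269761-38269960: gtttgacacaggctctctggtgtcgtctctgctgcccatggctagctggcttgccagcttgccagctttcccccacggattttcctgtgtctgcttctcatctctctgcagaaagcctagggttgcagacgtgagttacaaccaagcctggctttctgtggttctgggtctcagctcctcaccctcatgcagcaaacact
Zfpm2 after 30 min, chr15:40907741-40907980: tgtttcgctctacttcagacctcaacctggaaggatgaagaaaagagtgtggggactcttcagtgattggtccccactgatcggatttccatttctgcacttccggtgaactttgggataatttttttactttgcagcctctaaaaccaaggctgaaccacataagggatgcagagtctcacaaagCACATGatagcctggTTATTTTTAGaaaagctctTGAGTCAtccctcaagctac
Rora after 2 hr, chr9:68516641-68516840: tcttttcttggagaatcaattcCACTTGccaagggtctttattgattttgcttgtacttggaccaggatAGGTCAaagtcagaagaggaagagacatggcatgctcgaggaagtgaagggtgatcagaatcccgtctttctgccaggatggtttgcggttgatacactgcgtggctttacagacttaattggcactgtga
Etv6 after 5 hr, chr6:134155681-134155880: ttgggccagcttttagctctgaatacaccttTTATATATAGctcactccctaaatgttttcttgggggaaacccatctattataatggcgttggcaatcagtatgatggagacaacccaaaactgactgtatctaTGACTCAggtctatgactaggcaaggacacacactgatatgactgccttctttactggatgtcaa
Nfia in NeuN-negative nuclei, chr4:97672321-97672520: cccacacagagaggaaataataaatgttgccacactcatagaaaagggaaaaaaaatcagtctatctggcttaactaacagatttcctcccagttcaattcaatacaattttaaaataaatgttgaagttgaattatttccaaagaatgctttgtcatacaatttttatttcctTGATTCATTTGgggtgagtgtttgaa

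Both Cux2 sequences hold an E-box, the Aff3 sequence holds no match, the Rora sequence holds an E-box and a ROR core, and the Etv6 sequence holds the MEF2 motif and an AP-1 motif. The Nfia sequence has an AP-1 motif that overlaps an E-box by 2 bases. Over the first 200 bp of the 43 H3.3 regions of the set, 4 held AP-1 (9.30%, against 6.43% of the 4651 regions of the 5 H3.3 lists), 33 an E-box (76.7%, against 69.7%), 4 the ROR core (9.30%, against 12.8%) and 1 the MEF2 motif (2.33%, against 0.882%). The palindromic cyclic AMP response element and the full palindromic nuclear factor I motif were in 0 of the 43. They were in 0.0645% and 0% of all. The other AP-1 matches in that window were at Nfia and Prdm16 in NeuN-positive nuclei. The Zfpm2 sequence holds an E-box within its first 200 bp and a MEF2 and an AP-1 motif beyond them, which these counts leave out. These are matches of letters and do not show binding.

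H3.3 was higher at every listed region of the set in NeuN-positive nuclei of enriched mice, and lower at nearly every one after 30 min or 2 hr of KCl. In NeuN-positive nuclei 13 regions at 10 genes were gained and 0 lost, and 11 of the 13 had an adjusted p of 0.05 or less in the authors' deposited table, where 70.1% of listed regions were gained and 27.7% lost at that threshold. After 30 min of KCl 1 region was gained and 5 were lost, all at that threshold, against 19.9% of the list gained and 78.6% lost. After 2 hr 0 were gained and 7 lost, all at the threshold, against 14.2% and 85.3%. The direction at 30 min and 2 hr was thus that of the whole lists. At 30 min 2 of the 5 neuron markers, Snap25 and Syt1, were also listed as lost and 1 of 4 vascular markers, Pecam1, as gained, while 0 of 6 astrocyte, 7 oligodendrocyte lineage and 5 microglia markers were listed. Their part in the members' losses was not tested.

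After 5 hr of KCl 3 regions were gained and 3 lost, none with an adjusted p of 0.05 or less in the authors' deposited table, where only 1.65% of listed regions were gained and 1.35% lost at that threshold. The 6 members' adjusted p ran from 0.0797 to 0.11 there. In NeuN-negative nuclei 6 regions were gained and 5 lost, all 11 at the threshold, against 70.6% of the list gained and 29.3% lost. The share gained among members was therefore 100% in NeuN-positive nuclei, with 71.8% of the list, and 54.5% in NeuN-negative nuclei, with 70.7% of the list. Whether the members' shares differ from those of the lists was not tested. The H3.1/2 list held 7 regions, of which 4 had an adjusted p of 0.05 or less in the authors' deposited table, and 0 of the 7 were at these genes.

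The level in every library of one group lay beyond that of every library of the other in 43 of the 43 H3.3 regions, as it did in 100% of listed regions in each of the 5 H3.3 lists, so that the separation belongs to the listing. Relative to input, the ratios in the authors' deposited table moved the same way as the level in each of the 41 regions with a finite ratio. They did so in 95.7% to 100% of such regions in each of the 5 whole lists, so this too belongs to the listing. At Aff3 and Zfp536 after 30 min that ratio hardly differed, as given with these genes. Leaving out a library moved a count by more than 1.5 times in NeuN-positive nuclei alone, where 7 of the 11 called regions still differed at least 3-fold without the first normally housed value.

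**Figure D1:**
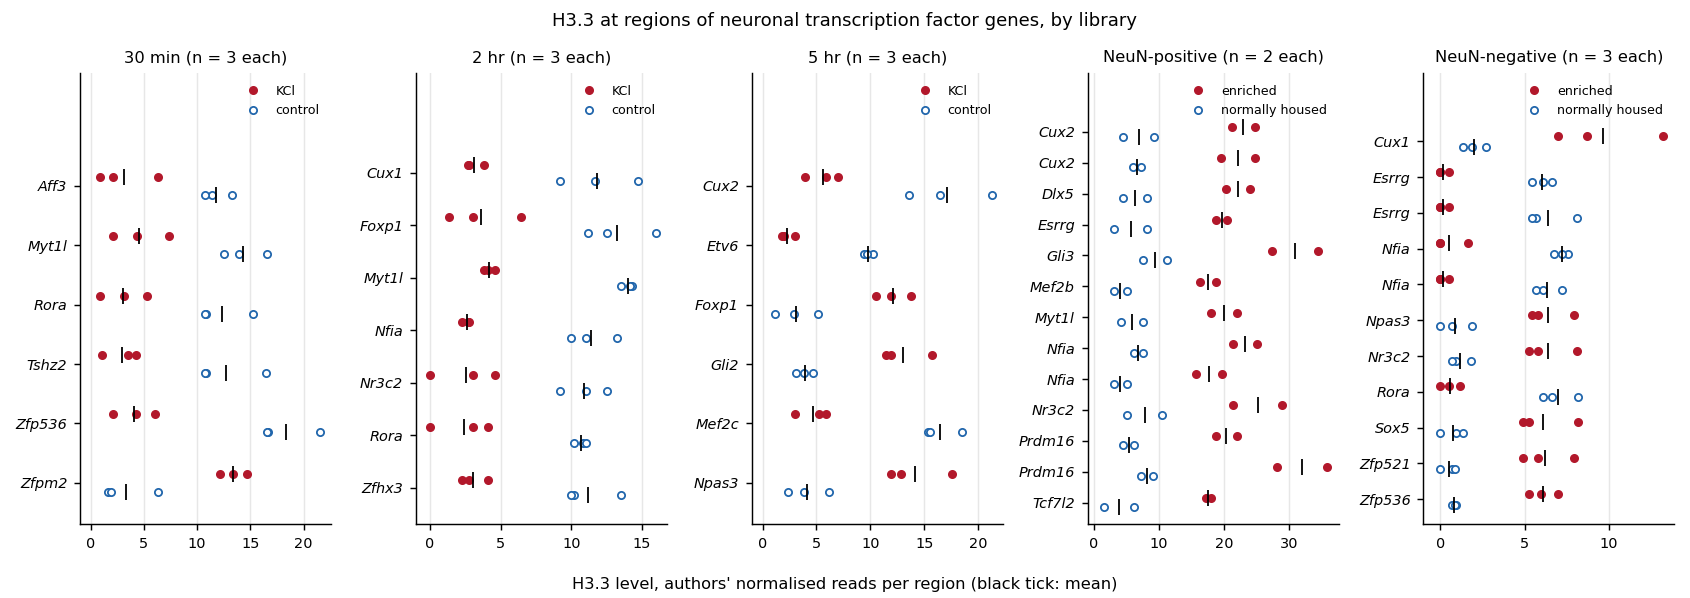
H3.3 level (authors' normalised reads, x axis) at the 43 regions of the set, 1 row per region and 1 panel per comparison, with filled points for KCl or enriched libraries, open points for control or normally housed libraries and a black tick at each mean. Every NeuN-positive region lies higher in enriched libraries, every 2 hr region lies lower in KCl libraries, and the other panels hold both directions.

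Among the homeodomain genes, Cux2 and Cux1, which mark upper-layer cortical neurons and shape their dendrites, were listed in culture and in the hippocampus with opposite directions. After 5 hr of KCl the Cux2 region in intron 10 had 5.90, 7.02 and 3.97 in KCl libraries, against 21.2, 16.4 and 13.6 in control libraries. Its mean was 5.63 ± 1.54 in KCl and 17.1 ± 3.88 in control neurons, and in the authors' deposited table its log2 fold change was -1.60 with an adjusted p of 0.11. That difference did not pass the threshold, although the libraries did not overlap.

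A coding exon of Cux2 360 bp away moved the other way in neurons of the hippocampus. There the level was 21.2 and 24.8 in enriched libraries, against 4.52 and 9.25 in normally housed libraries, and a second coding exon, at chr5:122335681-122335880, had 19.6 and 24.8 in enriched libraries, against 6.02 and 7.19 in normally housed libraries. Adjusted p in the authors' deposited table was 0.0379 and 0.0432. Both exons lie late in the gene, 164 and 170 kb into its 192 kb. Cells, age and brain region all differ between these settings and cannot be told apart.

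Cux1 repeated this order of signs in its intron 3, at regions 17960 bp apart. After 2 hr it had 2.76, 3.79 and 2.72 in KCl libraries, against 9.16, 11.7 and 14.7 in control libraries, a mean of 3.09 ± 0.607 in KCl and 11.8 ± 2.79 in control neurons. In NeuN-negative nuclei it had 6.98, 13.2 and 8.67 in enriched libraries, against 1.90, 1.35 and 2.71 in normally housed libraries, where the input held no read. The first was lost and the second gained, with adjusted p of 0.0281 and 0.00776 in the authors' deposited table. The second had 6, 5 and 16 reads in enriched libraries, against 2, 2 and 3 in normally housed libraries.

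Zfhx3, a large factor that combines zinc fingers with homeodomains and keeps daily rhythm in the hypothalamus, lost H3.3 in intron 5 after 2 hr. Its level was 2.76, 2.27 and 4.09 in KCl and 10.2, 10.0 and 13.5 in control libraries, with an adjusted p of 0.023 in the authors' deposited table. Dlx5, which directs forebrain interneurons, was gained in enriched NeuN-positive nuclei at its coding exon, with 20.4 and 24.0, against 4.52 and 8.22 in normally housed nuclei. At 4.28 kb Dlx5 is the shortest gene of the set, and it was the only member with an H3.3 region and no CATCH-IT region. Zfhx4, Pbx3, Meis1, Meis2, Satb1 and Lhx2 had no H3.3 region.

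The nuclear factor I family, which drives gliogenesis and the late maturation of neurons, was represented in H3.3 by Nfia alone, at 5 regions over 3 lists. In NeuN-positive nuclei 2 Nfia regions were gained, and in NeuN-negative nuclei 2 other Nfia regions were lost. The gained coding exon, chr4:97729581-97729820, had 25.1 and 21.4 in enriched libraries, against 7.53 and 6.16 in normally housed libraries. The gained region in intron 10 had 15.7 and 19.7 in enriched libraries, against 3.01 and 5.14 in normally housed libraries. Adjusted p was 0.0309 and 0.0341 in the authors' deposited table.

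Both lost Nfia regions were close to empty in enriched NeuN-negative nuclei. In intron 2 the enriched libraries had 0, 0 and 3 reads, against 8, 10 and 8 in normally housed libraries, or 0.543 ± 0.941 normalised reads in enriched and 7.19 ± 0.411 in normally housed nuclei. In intron 4 they had 0, 0 and 1 reads, against 6, 9 and 8. A read was worth 2.64 normalised reads in the second enriched library, which is the shallowest, and 0.542 in the third, the deepest, which held all reads of both regions. After 2 hr of KCl a further Nfia region in intron 10 was lost, with 2.76, 2.27 and 2.72 in KCl and 13.2, 10.0 and 11.1 in control libraries and an adjusted p of 0.018 in the authors' deposited table. It lies 13600 bp from the gained intron region of NeuN-positive nuclei.

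Of the 6 nuclear receptor genes, Rora, Esrrg and Nr3c2 were listed for H3.3. Rora, an orphan receptor of the circadian clock and of cerebellar and cortical maturation, was lost in all 3 of its lists. After 30 min its intron 2 region had 0.86, 5.26 and 3.09 in KCl libraries, against 15.2, 10.8 and 10.7 in control libraries. After 2 hr its intron 1 region had 0, 3.03 and 4.09 in KCl libraries, against 10.2, 10.8 and 11.1 in control libraries. These 2 regions lie 556 and 15.1 kb into a gene of 734 kb, so the loss was not at one site, and their adjusted p was 0.0257 and 0.0182 in the authors' deposited table.

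In NeuN-negative nuclei the Rora region had 1, 0 and 1 reads in enriched libraries, against 7, 9 and 9 reads in normally housed libraries. Its input held no read in the control group, so the ratio to input is infinite there. Esrrg, an estrogen-related receptor of oxidative metabolism, was lost in that fraction at 2 regions with 0, 0 and 1 reads in enriched libraries at each, against 7, 9 and 6 at chr1:189748761-189748960 and 6, 12 and 6 at chr1:189960401-189960600. In NeuN-positive nuclei another Esrrg region had 18.8 and 20.6 in enriched libraries, against 3.01 and 8.22 in normally housed libraries, but its adjusted p of 0.0587 in the authors' deposited table missed the threshold. Nfia and Esrrg are thus the genes of the set that were listed as gained in one nuclear fraction and lost in the other, at regions that do not coincide.

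Nr3c2, the mineralocorticoid receptor, which senses corticosterone in hippocampal neurons, was listed as gained in both fractions of enriched mice. In NeuN-negative nuclei it had 5.82, 5.28 and 8.13 in enriched libraries, against 0.95, 0.68 and 1.81 in normally housed libraries, with an adjusted p of 0.00556 in the authors' deposited table. These values stand for 5, 2 and 15 reads, against 1, 1 and 2. In NeuN-positive nuclei Nr3c2 had 29.0 and 21.4 in enriched libraries, against 10.5 and 5.14 in normally housed libraries. Its adjusted p there was 0.0592 in the authors' deposited table, which missed the threshold. After 2 hr of KCl an Nr3c2 region in intron 6 was lost, at 4.59, 3.03 and 0 in KCl and 9.16, 12.5 and 11.1 in control libraries. Nr3c1, the glucocorticoid receptor, Rorb and Nr2f1 had no H3.3 region.

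Of the MEF2 genes, which encode factors switched by calcium that control synapse number, Mef2b and Mef2c had 1 H3.3 region each. The Mef2b region, chr8:72679001-72679200, is the only one of the 43 that the authors classed as promoter, 2.42 kb into the gene in intron 1. Its level was 18.8 and 16.3 in enriched NeuN-positive libraries, against 3.01 and 5.14 in normally housed libraries, a mean of 17.6 ± 1.82 in enriched and 4.07 ± 1.51 in normally housed nuclei. In the authors' deposited table its adjusted p was 0.0341, and its ratio to input was 1.32 in enriched and 0.46 in normally housed mice.

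Mef2c, a regulator of cortical synapses, was listed as lost after 5 hr of KCl at chr13:83678921-83679200 in intron 2. Its level was 5.90, 5.27 and 2.98 in KCl libraries, against 15.3, 18.4 and 15.5 in control libraries, or 4.72 ± 1.54 in KCl and 16.4 ± 1.74 in control neurons. The adjusted p of 0.0797 in the authors' deposited table was the smallest of the 6 regions at this time and missed the threshold. A lost CATCH-IT region lies 9420 bp away in the same intron, with 0, 0 and 0 reads in KCl and 4, 3 and 12 in control libraries, and a gained one lies in intron 1.

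The zinc finger genes, which at 12 of 48 are the largest family, gave the most H3.3 regions of any family. Myt1l, which represses non-neuronal genes in neurons, was lost at both early times. After 30 min it had 4.32, 7.36 and 2.06 in KCl libraries, against 13.9, 12.5 and 16.6 in control libraries, and after 2 hr 4.59, 3.79 and 4.09 in KCl libraries, against 14.3, 14.2 and 13.5 in control libraries. The regions lie in introns 4 and 8, and adjusted p was 0.0303 and 0.0186 in the authors' deposited table. In enriched NeuN-positive nuclei a further Myt1l region, in intron 4, was gained, with 22.0 and 17.98, against 7.53 and 4.11 in normally housed nuclei.

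Zfp536, a repressor of neuronal differentiation, had the smallest adjusted p of the set in H3.3 culture lists, 0.00552 in the authors' deposited table. It had 6.05, 4.21 and 2.06 after 30 min of KCl, against 21.6, 16.6 and 16.6 in control libraries. Relative to input, however, it was 2.52 in KCl and 2.88 in control neurons in the authors' deposited table, which come from 1 input library each. In NeuN-negative nuclei another Zfp536 region, 373 kb into the gene, was gained. It had 6.98, 5.28 and 5.96 in enriched libraries, against 0.95, 0.68 and 0.90 in normally housed libraries. These values stand for 6, 2 and 11 reads, against 1, 1 and 1.

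Tshz2, a factor of the teashirt family, was lost after 30 min, at 3.46, 4.21 and 1.03 in KCl and 16.48, 10.8 and 10.7 in control libraries. Zfpm2, a cofactor that binds GATA factors, was the 1 region gained at that time, with 12.1, 14.7 and 13.4 in KCl libraries, against 6.34, 1.67 and 1.95 in control libraries. Adjusted p was 0.0278 for Tshz2 and 0.014 for Zfpm2 in the authors' deposited table. The Zfpm2 region sits in intron 5, 421 kb into a gene of 450 kb.

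The GLI factors, which act at the end of the Sonic hedgehog pathway, were both listed as gained. Gli2 had 15.7, 11.4 and 11.9 after 5 hr of KCl, against 4.72, 3.08 and 3.88 in control libraries, with an adjusted p of 0.11 in the authors' deposited table, which missed the threshold. Gli3 had 34.5 and 27.4 in enriched NeuN-positive nuclei, against 7.53 and 11.3 in normally housed nuclei, in a coding exon at its far end, with an adjusted p of 0.0347 in the authors' deposited table. Prdm16, a factor of neural stem cells and of the upper-layer fate, was gained at 2 introns in the same nuclei. The intron 1 region had 28.3 and 36.0 in enriched libraries, against 9.03 and 7.19 in normally housed libraries, and the intron 2 region 22.0 and 18.8 in enriched libraries, against 4.52 and 6.16 in normally housed libraries. Their adjusted p of 0.0197 and 0.0344 in the authors' deposited table include the smallest of the 13 regions.

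Zfp521, a factor of early neural fate, was gained in NeuN-negative nuclei, with 5.82, 7.93 and 4.88 in enriched libraries, against 0, 0.68 and 0.90 in normally housed libraries. These values stand for 5, 3 and 9 reads in enriched and 0, 1 and 1 reads in normally housed libraries. Bcl11a, Bcl11b, Tshz3 and Glis3 had no H3.3 region.

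Foxp1, a forkhead factor of cortical and striatal neurons that is mutated in language and intellectual disability, was the only gene of the set listed with opposite directions at different times of KCl. After 2 hr it was lost at an untranslated exon, 55 bp from an annotated transcript start inside the gene, with 6.43, 3.03 and 1.36 in KCl libraries, against 11.2, 12.5 and 16.0 in control libraries. After 5 hr an intron 3 region was listed as gained, with 13.8, 10.5 and 11.9 in KCl libraries, against 1.18, 5.13 and 2.91 in control libraries. Adjusted p was 0.023 at 2 hr and 0.105 at 5 hr in the authors' deposited table, so only the first passed the threshold. Foxp2 had no H3.3 region.

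Npas3, a helix-loop-helix PAS factor of neurogenesis in the dentate gyrus, was listed as gained at both of its regions. After 5 hr the region 4.38 kb into the gene, chr12:54353941-54354140, had 12.8, 17.6 and 11.9 in KCl libraries, against 2.36, 6.15 and 3.88 in control libraries, with an adjusted p of 0.0989, above the threshold, and a ratio to input of 13.96 in KCl and 2.74 in control neurons in the authors' deposited table. In NeuN-negative nuclei a region 99.5 kb into the gene had 5.82, 7.93 and 5.42 in enriched libraries, against 1.90, 0.68 and 0 in normally housed libraries. These values stand for 5, 3 and 10 reads, against 2, 1 and 0. Npas3 and Rora were the only members of 10 in several H3.3 lists with a single direction. Tcf4, Tcf12 and Ebf3 had no H3.3 region.

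Of the HMG box genes, Tcf7l2, a nuclear partner of β-catenin in Wnt signalling, was gained in NeuN-positive nuclei, with 17.3 and 17.98 in enriched libraries, against 1.51 and 6.16 in normally housed libraries. Its log2 fold change of 2.20 in the authors' deposited table was the largest of the 13 regions. Sox5, which controls deep-layer neurons and glia, was gained in NeuN-negative nuclei just upstream of its annotated start. It had 8.14, 5.28 and 4.88 in enriched libraries, against 0.95, 1.35 and 0 in normally housed libraries. These values stand for 7, 2 and 9 reads, against 1, 2 and 0. Sox6 had no H3.3 region.

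In the mixed group, Aff3, a part of a transcription elongation complex, was lost after 30 min. It had 0.86, 6.31 and 2.06 in KCl libraries, against 11.4, 13.3 and 10.7 in control libraries, with an adjusted p of 0.0279 in the authors' deposited table. Relative to input the level was 1.83 in KCl and 1.89 in control neurons in the authors' deposited table. Etv6, an ETS repressor, was listed as lost after 5 hr, at 1.97, 1.76 and 2.98 in KCl and 9.44, 10.2 and 9.70 in control libraries, with an adjusted p of 0.11 in the authors' deposited table. Runx1 and Ets1 had no H3.3 region.

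Of the 24 genes with H3.3 regions, 14 were in 1 list, 6 in 2 and 4 in 3, the last being Myt1l, Nfia, Rora and Nr3c2. Among the 10 in several lists, 8 had both directions. Most H3.3 regions lay within the genes, with 36 in introns, 5 in coding exons, 1 in an untranslated exon and 1 outside the annotated gene. The median distance from the start that the authors assigned was 191 kb at 30 min, against 17.1 kb for the list, 207 kb at 2 hr, against 23.8 kb, and 74.5 kb at 5 hr, against 25.6 kb. It was 41.6 kb in NeuN-positive nuclei, against 21.2 kb, and 130 kb in NeuN-negative nuclei, against 24.9 kb. To the nearest annotated start of the gene the members' median was 40.9 kb at 30 min, 60.9 kb at 2 hr, 21.2 kb at 5 hr, 32.4 kb in NeuN-positive and 99.5 kb in NeuN-negative nuclei, so the distances depend on the start used. The genes are long, with a median of 230 kb against 15.5 kb for 22238 protein-coding genes, and the 24 with an H3.3 region have a median of 331 kb against 140 kb for the 24 without. The part of gene length in these distances was not tested.

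**Figure D2:**
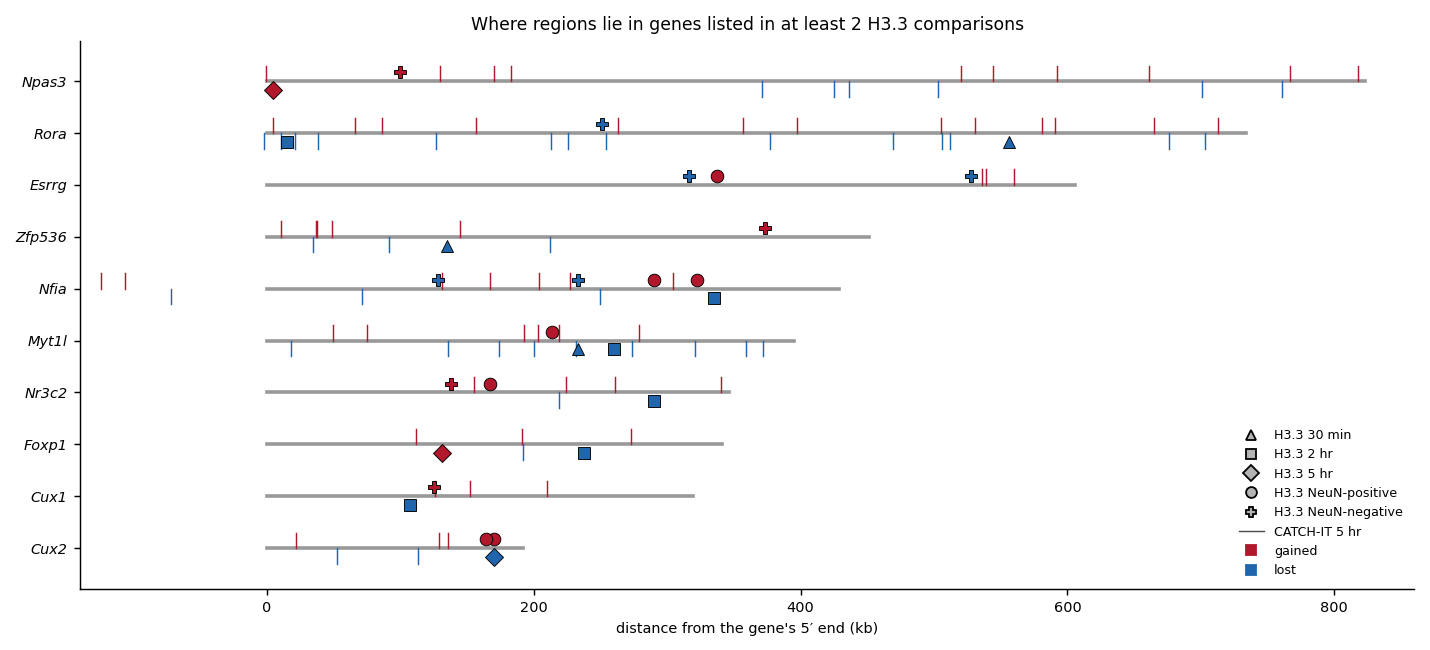
Position of regions along the 10 genes listed in at least 2 H3.3 comparisons, as distance from the 5′ end of the gene in kb (x axis), with the gene as a grey bar, H3.3 regions as symbols by comparison (hippocampal nuclei above the bar, culture below it), CATCH-IT regions as ticks, and red for gained and blue for lost. Cux1 and Cux2 hold a red hippocampal symbol near a blue culture symbol, and Rora holds 3 blue H3.3 symbols spread over the gene.

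Regions of different H3.3 lists rarely met within the set. No H3.3 regions of different lists overlapped, 1 pair lay within 1 kb, that of Cux2, and 5 pairs lay within 20 kb, at Cux2, Cux1, Nfia and Myt1l. In each of the 5 the culture region was listed as lost and the hippocampal region as gained. Loss also prevailed in the whole 30 min and 2 hr lists and gain in both hippocampal lists, and the pairs were not tested against them.

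The share of gained regions varied with base composition in the whole lists. In NeuN-positive nuclei 41.4% of all listed regions were gained in the lowest part by GC content, 78% in the middle part and 97.1% in the highest, when the list was cut into 3 equal parts. The 13 member regions had 47.7% to 63.8% GC, with a median of 55.5% against 51.0% for the list. Among all listed gene body regions within that range, 413 of 487 (84.8%) were gained. After 5 hr of KCl the gained share was 13.3%, 42.3% and 77.5% from the lowest to the highest part, while the 3 gained members had 39.5%, 50.0% and 64.0% GC and the 3 lost members 38.6%, 41.5% and 57.0%.

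In NeuN-negative nuclei the order was reversed and flatter, with 80.1%, 69.0% and 62.8% gained. The gained members there had 42.5% to 63.0% GC and the lost members 31.5% to 51.0%. At 30 min the gained share was 29.4%, 17.5% and 13.3%, and at 2 hr 3.91%, 12.6% and 27.3%. The part of base composition in the members' directions was not tested.

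**Figure D3:**
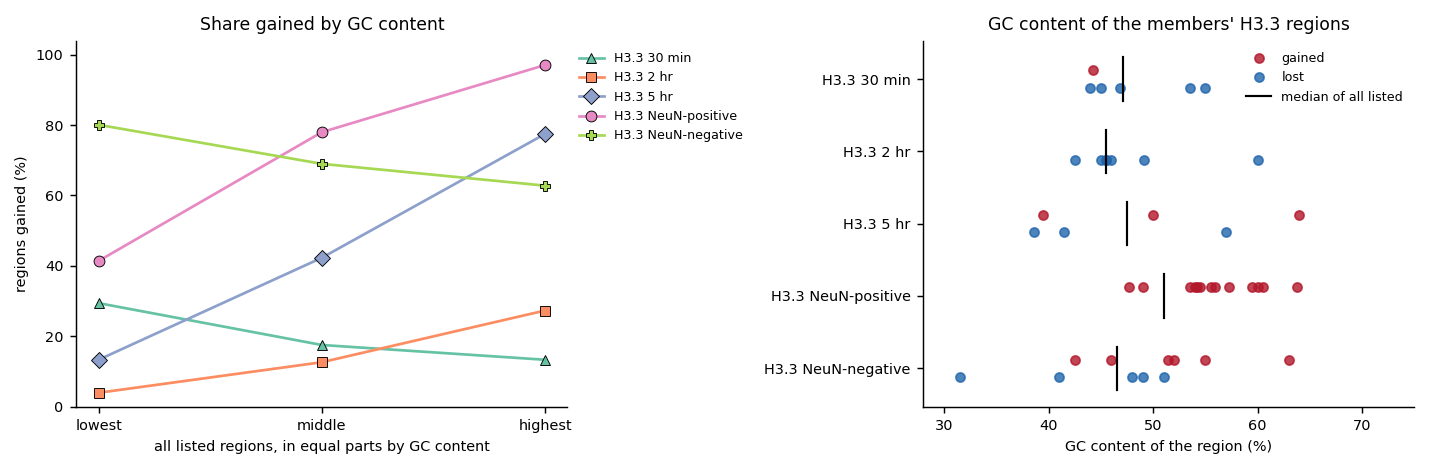
Left, share of all listed regions that were gained (y axis, %) in 3 equal parts of each list by GC content (x axis), 1 line per H3.3 comparison. Right, GC content (x axis, %) of the members' H3.3 regions, red for gained and blue for lost, with the median of each whole list as a black line. The NeuN-positive line climbs from 41.4% to 97.1%, and 11 of the 13 member regions of that list lie above its median of 51.0% GC.

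In CATCH-IT, which reads newly made histones, 43 of the 48 genes had a region after 5 hr of KCl. They held 297 regions in all, with both directions at most genes. Among all 22238 protein-coding genes, whose median length is 15.5 kb against 230 kb for the set, 8752 had a region. The part of gene length in this coverage was not tested. Of the members' 297 regions, 172 were gained and 125 lost, all with an adjusted p of 0.05 or less in the authors' deposited table. There 57.3% of the 53020 regions were gained and 42.7% lost. The members' share gained was 57.9%, at the background. The 43 genes included 32 with both directions, 8 with gained regions only (Bcl11a, Cux1, Ebf3, Esrrg, Gli3, Nr3c1, Rorb and Zfhx4) and 3 with lost regions only (Mef2b, Nfib and Tshz3). Mef2a, Mef2d, Lhx2, Nr2f1 and Dlx5 had none. Genes of a single direction had 1 to 4 regions each, and such counts over all genes were not made.

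Rora had the most CATCH-IT regions of the set, 27, with 13 gained and 14 lost. Aff3 followed with 14 gained and 7 lost, Zfpm2 with 10 and 8, Npas3 with 10 and 6, Myt1l with 6 and 9, and Sox5 with 5 and 8. Tcf4, the helix-loop-helix factor of Pitt-Hopkins syndrome, had 5 and 6, Nfia had 7 and 3, and Sox6 had 4 and 6. Glis3, Zfp521 and Tshz2 had 9 regions each. No gene among these was of a single direction.

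The gained share by family ran from 33.3% to 70%, and no difference between families was tested. The gained share was 63.3% of 30 regions at homeodomain genes, 61.5% of 39 at nuclear receptor genes and of 39 at Runt, ETS and AFF genes, 60.5% of 38 at helix-loop-helix genes and 60% of 20 at nuclear factor I genes. It was 55.1% of 89 at zinc finger genes, 44.8% of 29 at HMG box genes and 70% of 10 at forkhead genes. Within the nuclear factor I family Nfia had 7 gained and 3 lost regions and Nfix 5 and 1, while Nfib had 0 and 4. MEF2 genes had 1 gained and 2 lost, or 0.858 regions per 100 kb of gene, the lowest density, and the Runt, ETS and AFF group had 3.65, the highest.

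**Figure D4:**
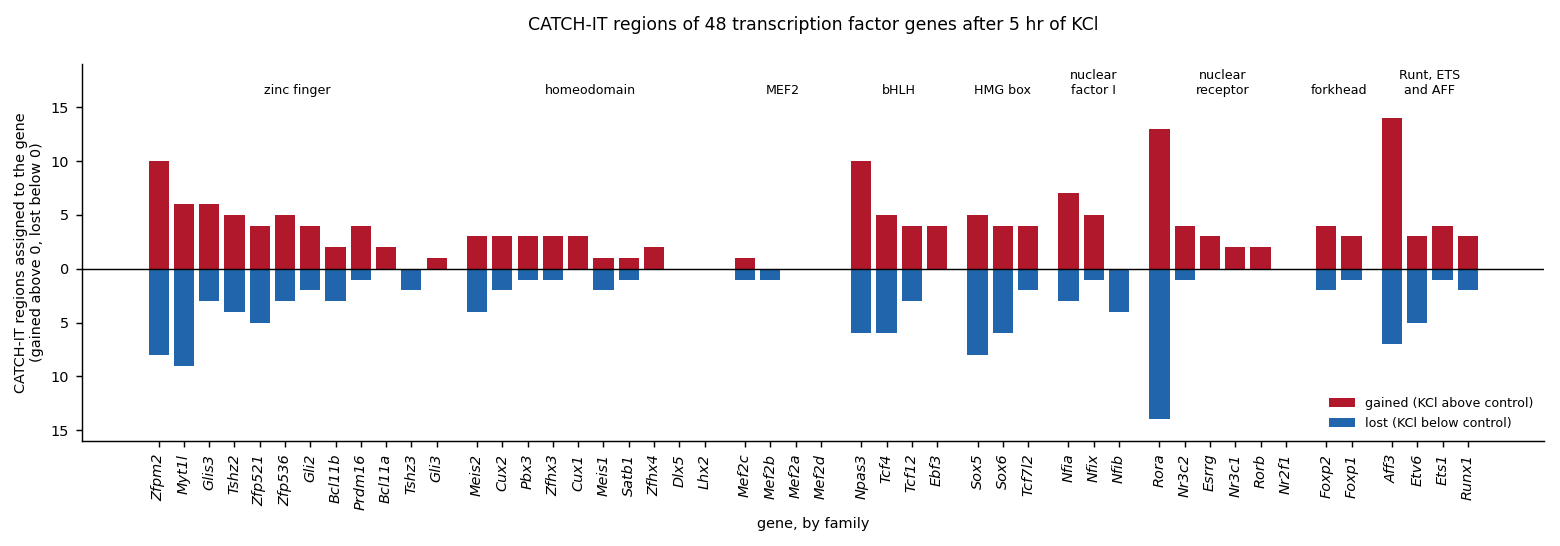
Number of CATCH-IT regions (y axis) assigned to each of the 48 genes (x axis, by family), with gained regions above 0 in red and lost regions below 0 in blue. Rora reaches 13 gained and 14 lost, Aff3 14 and 7, and 5 genes have no bar.

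CATCH-IT regions per gene were set against gene length. The 43 genes had a median of 2.17 regions per 100 kb, against 3.88 for the 8752 genes with a CATCH-IT region in all, which are shorter. Among genes of at least 100 kb the median was 2.14 for 37 members, against 2.13 for 2164 genes, a difference that was not tested. Of the 297 regions 273 were in introns and 5 were classed by the authors as promoter.

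The 5 promoter regions were at Npas3, Zfpm2, Satb1, Nfix and Rora. At Npas3, 653 bp upstream of the start, KCl libraries had 1, 37 and 2 reads, against 0, 0 and 0 in control libraries, so 1 library supplied nearly all of them. Zfpm2 was gained at its start, with 7, 4 and 3 reads in KCl libraries, Satb1, a chromatin organiser of cortical interneurons, with 2, 9 and 1, and Nfix with 1, 9 and 1, each against 0, 0 and 0 in control libraries. Rora was lost 1.89 kb upstream of its start, with 0, 0 and 0 reads in KCl and 11, 6 and 12 in control libraries. Npas3 thus gained CATCH-IT reads upstream of its start and was listed for H3.3 within its first intron, 4740 bp away.

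The adjusted p of 4.15e-07, the smallest of the members in the authors' deposited table, was shared by 37 of the 297 regions. Of these, the largest mean was at a coding exon of Nr3c1, the glucocorticoid receptor, with 25, 9 and 8 reads in KCl libraries, against 0, 0 and 0 in control libraries, or 20.0 ± 14.4 normalised reads in KCl. Cux1 had 21, 6 and 6 reads in KCl libraries, Nfia 18, 6 and 5 and Sox6 7, 14 and 8 and, in a second region, 8, 16 and 6. Aff3 had 6, 6 and 9, Zfhx4 6, 6 and 9, Myt1l, at an untranslated exon, 6, 6 and 9 and Etv6 7, 12 and 7. All of these had 0 reads in the control libraries. The lost regions among the leading 12 had 0 reads in KCl libraries, against 8, 7 and 22 in control libraries at Rora, 5, 5 and 24 at Myt1l and 8, 9 and 18 at Glis3.

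These regions were zero in one group as a rule. Of the members' 297 regions, 294 (99.0%, against 97.7% of the list) had no read in any library of the lower group, and the 3 others were 2 of Aff3 and 1 of Zfpm2. All 297 had reads in each of the 3 libraries of the higher group. Reads summed over the 3 libraries had a median of 17 in gained and 22 in lost members, with a range of 8 to 50 and of 14 to 37. Because the lower group is at 0, no fold change is given.

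The reads per library piled up at exactly 6 and exactly 12, and the name of the list carries a duplicate setting of 6. Among gained members 105 of 172 (61.0%, against 58.3% of gained regions in the list) had a KCl library at exactly 6 or 12 reads, and among lost members 114 of 125 (91.2%, against 93.8%) had such a control library. In the third control library 82 of the 125 lost members had exactly 12 reads, 0 had 11 and 4 had 13. Of the 22661 lost regions in the list, 15324 had exactly 12 reads there. All 3 libraries of the higher group held exactly 6 reads in 10 gained members (5.81%, against 5.18% of gained regions in the list) and 7 lost members (5.6%, against 8.85%). The gained ones, at Ebf3, Esrrg, Myt1l, Nr3c2, Prdm16, Rora, Runx1, Tshz2, Zfp521 and Zfp536, share a mean of 9.18 normalised reads in KCl libraries. A single library held at least 70% of the reads in 87 of 172 gained members (50.6%, against 47.5% of gained regions in the list). It did so in 24 of 125 lost members (19.2%, against 22%). Without regions in which a library held exactly 6 or 12 reads, an alternative chosen after the data were seen, 67 gained and 11 lost members were left, or 85.9% gained. In the whole list the same exclusion takes out 58.3% of gained and 93.8% of lost regions, so the gained share rises there too. The part of the duplicate setting in the directions was not tested.

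**Figure D5:**
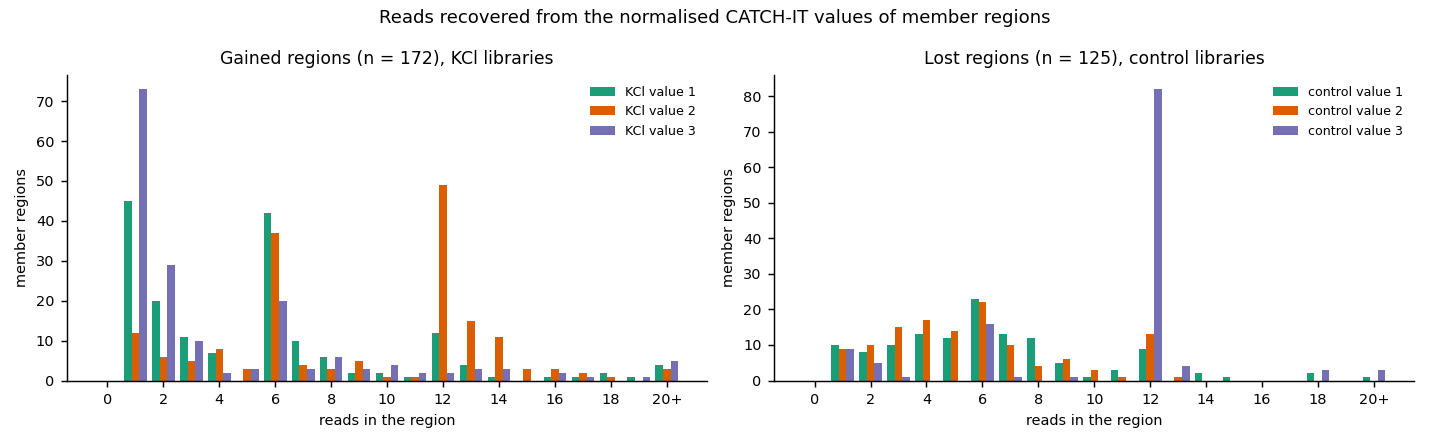
Number of member CATCH-IT regions (y axis) by the reads that a library held in the region (x axis), for the KCl libraries at gained regions on the left and the control libraries at lost regions on the right, 1 colour per library. Bars stand out at 6 and 12 reads, most of all at 12 in the third control library, with 82 of 125 regions.

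Gained and lost CATCH-IT regions lay side by side at several genes. Within 1 kb of each other lay 11 pairs of member regions, 8 with opposite directions (72.7%, against 53.7% of 1444 such pairs in the list). At Glis3 a gained and a lost region shared 100 bp, and at Tcf7l2 40 bp. The gained Glis3 region, chr19:28525581-28525960, had 3, 20 and 1 reads in KCl libraries, against 0, 0 and 0 in control libraries, and the lost one, chr19:28525861-28526160, had 0, 0 and 0 in KCl, against 5, 7 and 12 in control. At Tcf7l2 the gained region had 12, 12 and 14 reads in KCl, against 0, 0 and 0 in control, and the lost region 0, 0 and 0 in KCl, against 6, 10 and 12 in control. In the whole CATCH-IT list 155 pairs overlapped, and all 155 had opposite directions, so that opposite signs in an overlap belong to the listing. The pairs within 1 kb include the overlapping ones. Pairs without overlap but of opposite sign lay 60 bp apart at Nfix and 220 bp apart at Foxp1.

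CATCH-IT and H3.3 regions of the set met at few places. Of the 43 H3.3 regions 1 overlapped a CATCH-IT region, 2 had one within 1 kb and 10 within 5 kb. The overlap was at Aff3, where the H3.3 region lost after 30 min lies wholly in a CATCH-IT region gained after 5 hr, with 6, 6 and 8 reads in KCl libraries, against 0, 0 and 0 in control libraries. At Prdm16 the region gained in NeuN-positive nuclei, which holds an AP-1 match, lay 380 bp from a gained CATCH-IT region of 1, 12 and 1 reads. After 5 hr, where both assays were run, the Etv6 and Mef2c regions listed as lost for H3.3 had a lost CATCH-IT region 4740 and 9420 bp away, and the Npas3 and Foxp1 regions listed as gained had a gained one 4740 and 18260 bp away. A gained CATCH-IT region also lay 16560 bp from the Etv6 region. Cux2 and Gli2, the other 2 regions at that time, had none within 20 kb.

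Of 61 related genes of the same families, 1 region was lost after 30 min, 2 after 2 hr and 4 after 5 hr, and 0 were gained at any of these times. The 5 hr regions did not pass the threshold. In NeuN-positive nuclei 7 relatives were gained and 1 was lost. The gained relatives were Aff1, Ebf1, Esrrb, Glis1, Nfic, Nr2f6 and St18, all past the threshold. In NeuN-negative nuclei Runx1t1 was gained and Zfp423 lost, and Zfp423 was also the gene of both regions lost after 2 hr.

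CATCH-IT listed 64 gained and 49 lost regions at 37 of the 61 relatives. Of 24 other neuronal factors, 1 had an H3.3 region, Hivep2, lost after 2 hr at 4.32 ± 2.92 in KCl and 13.5 ± 2.38 in control neurons, and 9 had CATCH-IT regions, 21 gained and 9 lost. Gain in NeuN-positive nuclei and loss at early times of KCl thus prevailed at relatives too, as in the whole lists.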

How the data were processed

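Chromatin immunoprecipitation reads were aligned to mm9 with Bowtie 0.12.7 and handled with bedtools 2.16.2, per the submitters' processing notes. The sources used here do not name the program that found the regions. Each deposited list packs the normalised read counts of the libraries into 1 cell a group, without library names, and per the file headers it holds group means (a signal of normalised reads), a ratio to input, a log2 fold change and p-values, all made by the authors. Because the lists hold only regions already chosen on these libraries, no new test per region was run, and the authors' adjusted p of 0.05 or less was taken as called.

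Reads per library were recovered from the steps of the low normalised values, to within 0.1 read. Positions in genes, GC content and motif matches were computed from the mm9 genome and its annotation with Python 3.11.15, numpy 2.4.6, pandas 2.3.3 and pysam 0.24.0, and figures with matplotlib 3.10.9. The scripts were tested on simulated data. Columns of per-library values left unused numbered 0.

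The 48 genes and all lists were chosen with earlier results of these data known. Named for H3.3 were called regions, at most 12 a list, regions within 1 kb of another list's, and those of MEF2, nuclear factor I and nuclear receptor genes. Named for CATCH-IT were the 10 genes with most regions, the 12 regions of smallest adjusted p (ties by level), and those at promoters or overlapping H3.3 regions. The 5 hr regions of Etv6, Foxp1, Gli2 and Npas3, the close CATCH-IT pairs and the genes with 6 reads in every library fall outside that rule and were named after their values were seen. Alternatives were a stricter adjusted p, annotated gene regions alone, a minimum mean of 10 and direction relative to input. Others took each gene once, by its smallest adjusted p, or left out each value. The 30 min control group has 4 labelled libraries but 3 values. Among the 4 is a library labelled as a repeat of #1, and how it entered the values is not given. The values of 1 related gene are not reported here.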

Additional observations from a re-analysis of the deposited data

Results flagged for a closer look

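The authors' log2 fold changes in the deposited tables had opposite signs at 3 genes, between the nuclear fractions at Nfia and Esrrg and between times of KCl at Foxp1. Each fold change comes from its own list and libraries. The difference was not tested in any of these genes because the regions do not coincide. Nfia had 1.76 and 2.12 in NeuN-positive nuclei, and -3.73 and -5.13 in NeuN-negative nuclei. Esrrg had 1.81 in NeuN-positive nuclei, and -5.06 and -5.15 in NeuN-negative nuclei. The negative values rest on 0, 0 and 3 or on 0, 0 and 1 reads in enriched libraries, so their size is poorly determined. Foxp1 had -1.87 after 2 hr of KCl and 1.97 after 5 hr. The Esrrg gain and the Foxp1 gain missed the threshold, with adjusted p of 0.0587 and 0.105 in the authors' deposited tables.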

How the results depend on the processing

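Of 131 alternatives, 119 left a count or share near its value and 12 moved it, and a reversal was not scored. The 68 that left out a value are among them, and the outcome of many of these was fixed in advance, as given below. At an adjusted p of 0.01 or less in the authors' deposited tables, called member regions numbered 1 after 30 min, 0 after 2 hr and 0 in NeuN-positive nuclei, against 6, 7 and 11 at 0.05. At 0.05 the 5 hr H3.3 list kept 0 members of 6. With a mean of at least 10 in the higher group, 48 of 297 CATCH-IT regions and 0 of 11 NeuN-negative regions stayed called. Against 57.9%, the CATCH-IT share gained was 71.4% of the 28 regions with a finite ratio relative to input and 100% of the 3 regions with reads in both groups. With each gene once it was 88.4%, but that share covers only the region of smallest adjusted p of each gene. It was 85.9% of the 78 regions with no library at exactly 6 or 12 reads, an alternative chosen after seeing the data. In the whole list that exclusion takes out 58.3% of gained and 93.8% of lost regions. Asking for reads in both groups takes out 96.5% of gained and 99.4% of lost regions there. Both alternatives thus raise the gained share of the whole list too. The exact shares gained of the whole list under these alternatives were not computed. The cause of these moves was not tested.

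Leaving out each value in turn and asking for a 3-fold difference left 4 to 6 called regions at 30 min, 5 to 7 at 2 hr, 0 at 5 hr, 7 to 10 in NeuN-positive nuclei, 11 in NeuN-negative nuclei and 297 in CATCH-IT, and shares gained stayed as reported, which groups without overlap fix in advance. In CATCH-IT the count was fixed in advance for the 294 regions with 0 reads in the whole lower group, so it says nothing about stability there. No paired analysis was possible because the values are packed in a cell without library names or replicate numbers. H3.1/2 shares and the 5 hr share at 0.05 gave no value. Few reads a region limit all of these values.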
